A study of Mus musculus with 2 samples.

Results

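The miR-200 family (Mir200b, Mir200a, Mir429, Mir200c and Mir141), Mir203 and Mir205 are microRNAs typical of epithelial cells. They were picked by gene name, as 7 of the 2202 microRNA genes counted, and not by a rule on their levels. Earlier results of these data were known when the choice was made. MicroRNA-seq had been performed on the adrenal gland of female B6CASTF1/J mice, hybrid offspring of C57BL/6J and CAST/EiJ parents, at an age of 10 days. There were 2 libraries, replicate 1 from the animal numbered 3 and replicate 2 from the animal numbered 4, with no treatment and no second group. Both samples carry the same donor entry, and only the numbering says that they are different animals. As 1 library is set against another, any p-value tests only whether these libraries differ beyond counting error.

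MicroRNAs are short RNAs cut from hairpin precursors that pair with messenger RNAs, mainly through bases 2 to 8 of the mature product, the seed. The miR-200 family represses the transcription factors Zeb1 and Zeb2, which switch off E-cadherin, and so helps to hold cells in an epithelial state. Zeb1 and Zeb2 in turn repress the miR-200 genes. Mir205 shares these targets and is abundant in basal cells of stratified epithelia, and Mir203 drives the exit of keratinocytes from the cell cycle by repressing p63. The adrenal cortex derives from mesoderm and the medulla from the neural crest.

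Mature sequences were found for all 7 genes in RefSeq (GRCm38.p6). They are shown because the seed divides the miR-200 family in a way that cuts across its genomic clusters. Each is written 5′ to 3′ for the arm that usually acts as the guide, with the seed in capitals.
miR-200b-3p: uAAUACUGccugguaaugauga
miR-200c-3p: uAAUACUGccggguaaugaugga
miR-429-3p: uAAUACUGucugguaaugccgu
miR-200a-3p: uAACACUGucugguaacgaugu
miR-141-3p: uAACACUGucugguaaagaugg
miR-203-3p: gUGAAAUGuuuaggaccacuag
miR-205-5p: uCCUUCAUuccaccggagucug

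Counted from the 5′ end, a single substitution, U4C from miR-200b-3p to miR-200a-3p, separates the 2 miR-200 seeds. Over 22 aligned bases, miR-200b-3p and miR-200c-3p differed at 2 positions (U11G and A22G), and so did miR-200a-3p and miR-141-3p (C17A and U22G). The pairs that share both a seed and 20 of 22 bases thus lie on different chromosomes. Pairs from different seed groups shared 17 or 18 of 22 bases. So did miR-429-3p with its seed mates, at 18 for miR-200b-3p and 17 for miR-200c-3p. In the RefSeq table no mature microRNA of a gene outside the 7 carried any of these 4 guide seeds, and each full guide sequence was held by 1 hairpin.

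In GENCODE M21 on mm10, Mir200b, Mir200a and Mir429 lie within 1846 bases on the minus strand of chromosome 4, at positions 156055681 to 156055750, 156054896 to 156054985 and 156053905 to 156053987. All 3 are in an intron of the tubulin-modifying enzyme gene Ttll10, and Mir429 is also in an exon of the noncoding gene Gm13648, in whose intron the other genes of the cluster sit. Mir200c (124718322 to 124718390) and Mir141 (124717914 to 124717985) lie within 477 bases on the minus strand of chromosome 6, in an intron of the noncoding gene Gm15884. Mir141 also overlaps part of an exon of the unverified gene Gm29008. Mir205, on chromosome 1 at 193507463 to 193507530 on the minus strand, lies in an exon of the noncoding RNA gene 4631405K08Rik, named Mir205hg by RefSeq. Mir203, on chromosome 12 at 112130880 to 112130955 on the plus strand, overlaps no other gene of the annotation.

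Only reads sharing the strand of a gene entered its level, given as CPM, the count divided by all counts of microRNA genes and multiplied by 1000000. The libraries held 2023410 and 3208821 such reads, 38.3% and 37.5% of all reads. A single count equalled 0.494 CPM in the first and 0.312 CPM in the second. Each read was taken to be a whole mature product, which the counts do not show, so no scaling by length was applied. CPM of different genes can still differ through how readily each sequence is captured. The 7 genes together took 1501 counts in replicate 1 (742 CPM, or 0.0742% of the library) and 10507 counts in replicate 2 (3274 CPM, or 0.327%), a mean of 2008 ± 1791 CPM (SD, n = 2). Every member had counts in both animals, and every member was higher in replicate 2.

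Mir203 was the most abundant member in both animals. It stood at 300.0 CPM in replicate 1 (exact Clopper-Pearson 95% interval 277 to 325 CPM) and at 2141 CPM in replicate 2 (2090.4 to 2192 CPM). Among all genes it ranked 148 by level in replicate 1 and 60 in replicate 2. Its lower value, 299.99 CPM in replicate 1, was barely above the higher value of Mir200b, the next gene by mean level. That value was 298.55 CPM in replicate 2 (280 to 318 CPM), so the counting intervals overlap.

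Of the chromosome 4 cluster, Mir200b had 114 CPM in the first animal against 299 CPM in the second, a mean of 206 ± 130.4 CPM (SD, n = 2). Mir429 was at 46.5 and 275 CPM, a mean of 161 ± 162 CPM (SD, n = 2). Mir200a was far lower, with 8 counts (3.95 CPM) in replicate 1 and 166 counts (51.7 CPM) in replicate 2. The order Mir200b, Mir429, Mir200a held in both animals. In replicate 2, though, the counting intervals of Mir200b (280 to 318 CPM) and Mir429 (257 to 294 CPM) overlapped.

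Of the chromosome 6 cluster, Mir200c was at 140.4 and 243 CPM in replicates 1 and 2, a mean of 192 ± 72.6 CPM (SD, n = 2). Mir141 had 19 counts (9.39 CPM) and 64 counts (19.9 CPM). Mir205, which lies apart from both clusters, was at 128 and 246 CPM, a mean of 187 ± 83.5 CPM (SD, n = 2), and the counting intervals of Mir205 and Mir200c overlapped in each animal.

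**Figure D1:**
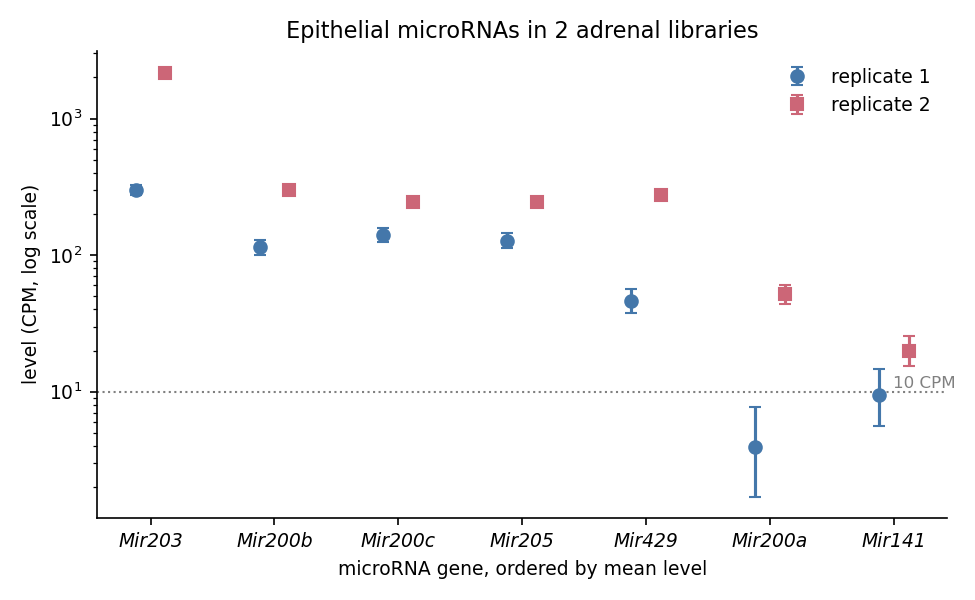
Level of each gene in CPM on a log axis, with genes ordered by mean level. Circles are replicate 1, squares replicate 2, bars are exact 95% intervals for counting error, and the dotted line is 10 CPM. Replicate 2 lies above replicate 1 for each of the 7 genes, from 9.39 against 19.9 CPM for Mir141 to 300.0 against 2141 CPM for Mir203.

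By mean level the order was Mir203, Mir200b, Mir200c, Mir205, Mir429, Mir200a and Mir141. Mir203 was first in both animals. Its range over the animals stood clear of that of Mir200b only by 299.99 against 298.55 CPM, which is within counting error. These CPM carry no scaling beyond the library total. All other neighbours in this order had ranges that overlapped. Mir200b, Mir200c, Mir205 and Mir429 could not be ranked beyond their spread, since in replicate 1 they ran Mir200c, Mir205, Mir200b, Mir429 and in replicate 2 Mir200b, Mir429, Mir205, Mir200c. Mir141 was above Mir200a in replicate 1 and below it in replicate 2.

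The size of the difference varied widely among members. Log2 ratios are of replicate 2 over replicate 1, on CPM scaled by edgeR's TMM factors, with a pseudocount of 1 CPM that understates the differences of low genes. Fold values and their exact 95% intervals carry no pseudocount. Each gene was tested against counting error with a two-sided exact conditional binomial test, and p-values were Benjamini-Hochberg adjusted over the 329 genes that reached 10 CPM in at least 1 library. The test compares these libraries, not conditions.

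Mir200a had the largest ratio of the set, 13.5-fold (6.71 to 31.9), with a log2 ratio of 3.45. That value rests on 8 counts in replicate 1, and with a pseudocount of 10 CPM the log2 ratio was 2.17. Mir203 was 7.38-fold higher (6.79 to 8.03), a log2 ratio of 2.88, and Mir429 was 6.12-fold higher (4.94 to 7.65), a log2 ratio of 2.59. These genes ranked 3, 5 and 9 by log2 ratio among the 329 tested, from the highest ratio down.

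The other members moved less. Mir200b was 2.70-fold higher in replicate 2 (2.34 to 3.14) and Mir205 1.99-fold (1.73 to 2.30). Mir200c was 1.79-fold higher (1.56 to 2.06), with a log2 ratio of 0.84 and rank 46. Mir141, with few counts, had the widest interval of these at 2.20-fold (1.30 to 3.88) and an adjusted p of 0.00249 in the exact conditional binomial test. The SD of log2 ratios over all genes tested was 1.01 around a median of -0.0052, so the ratios of Mir205 and Mir200c were within 1 SD of the median gene of these libraries.

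All 7 members passed the test and were higher in replicate 2, where 37.7% of all genes tested were called higher and 74.2% were called in either direction. Mir200a and Mir141 reached 10 CPM in replicate 2 alone, which fixed their direction, while the other 5 reached it in both animals. A log2 ratio of at least 1 was reached by 5 members and by 10.9% of all genes tested, and a log2 ratio of at least 2 by 3 members and by 3.95% of all genes. The median log2 ratio of the 7 was 1.43. As members of a cluster can share a primary transcript, the 7 are not separate observations. In bulk tissue, fewer cells of a type and less of an RNA per cell cannot be told apart.

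**Figure D2:**
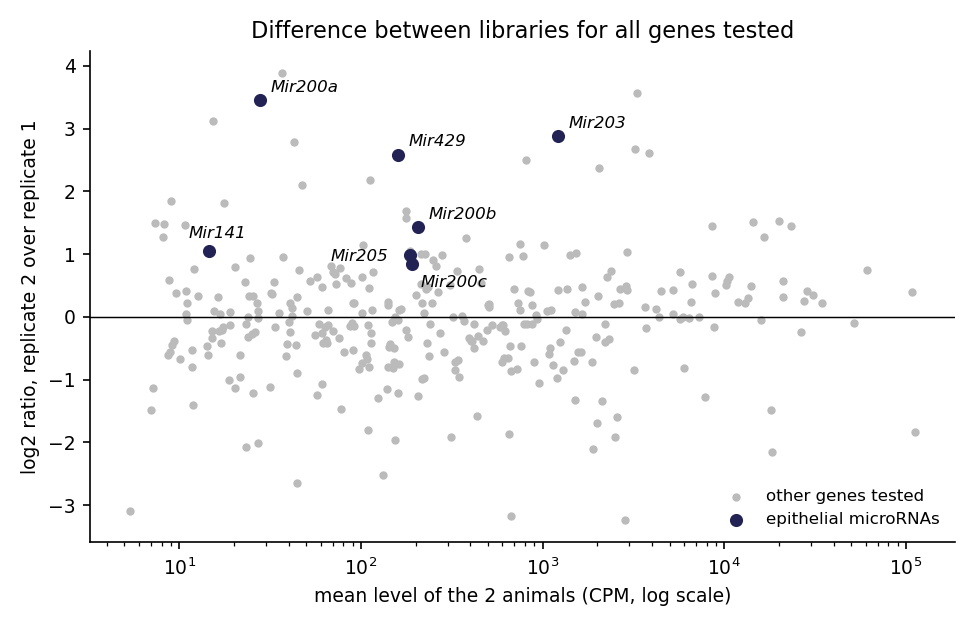
Log2 ratio of replicate 2 over replicate 1 against mean CPM on a log axis for the 329 genes tested, with each gene 1 point and the 7 epithelial microRNAs dark and named. The 7 lie between 0.84 and 3.45, above the median of all genes at -0.0052.

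The proportions among the members also differed between the animals. Mir203 made up 40.4% of the summed counts in replicate 1 and 65.4% in replicate 2, with exact 95% intervals of 37.9 to 43.0% and 64.5 to 66.3%. The chromosome 6 cluster went from 20.2% to 8.03% of these counts and Mir205 from 17.2% to 7.50%, while the chromosome 4 cluster had 22.2% (20.1 to 24.4%) and 19.1% (18.3 to 19.9%). Reads of Mir203 numbered 0.954 per read of the whole miR-200 family in replicate 1 and 2.41 in replicate 2. The log2 ratio of the summed level of the 7 genes was 2.19 (exact 95% interval 2.11 to 2.27), and 1.41 (1.30 to 1.51) when Mir203 was left out.

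The 2 miR-200 clusters had nearly equal totals in replicate 1, 165 CPM for chromosome 4 and 149.7 CPM for chromosome 6. In replicate 2 they stood at 625 and 263 CPM. The chromosome 4 total per chromosome 6 read thus went from 1.10 to 2.38. The log2 ratio between the libraries was 1.97 for the chromosome 4 cluster (1.81 to 2.15) and 0.86 for the chromosome 6 cluster (0.67 to 1.05), and these intervals do not overlap.

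Genes of a cluster can be cut from a shared primary transcript, so their proportions are also given. They restate the counts behind the ratios above, and the shares within a cluster depend on one another. In the chromosome 4 cluster, the share of Mir200b was 69.4% in replicate 1 and 47.8% in replicate 2, with exact 95% intervals of 64.1 to 74.3% and 45.6 to 50.0%. Mir429 took 28.2% (23.5 to 33.4%) and 44.0% (41.8 to 46.2%), and Mir200a 2.40% (1.04 to 4.68%) and 8.28% (7.11 to 9.57%). For each of these 3 genes the intervals of the libraries do not overlap. These intervals cover counting error only, and 74.2% of all genes tested were called different between the libraries. Cluster neighbours outside the set also had unlike log2 ratios, such as Mir34c (2.51) and Mir34b (-0.0030), and Mir145a (2.68) and Mir143 (0.34). Whether a shift of this size is particular to the chromosome 4 cluster was not tested. Mir200b thus had 2.46 reads per Mir429 read in replicate 1 and 1.09 in replicate 2, and 28.9 and 5.77 reads per Mir200a read.

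The make-up of the chromosome 6 cluster did not differ beyond counting error. Mir200c took 93.7% of its counts in replicate 1 (90.4 to 96.2%) and 92.4% in replicate 2 (90.4 to 94.1%), and Mir141 the remaining 6.27% and 7.58%. With 19 Mir141 counts in replicate 1, a shift of a few percentage points was not detectable at this depth.

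**Figure D3:**
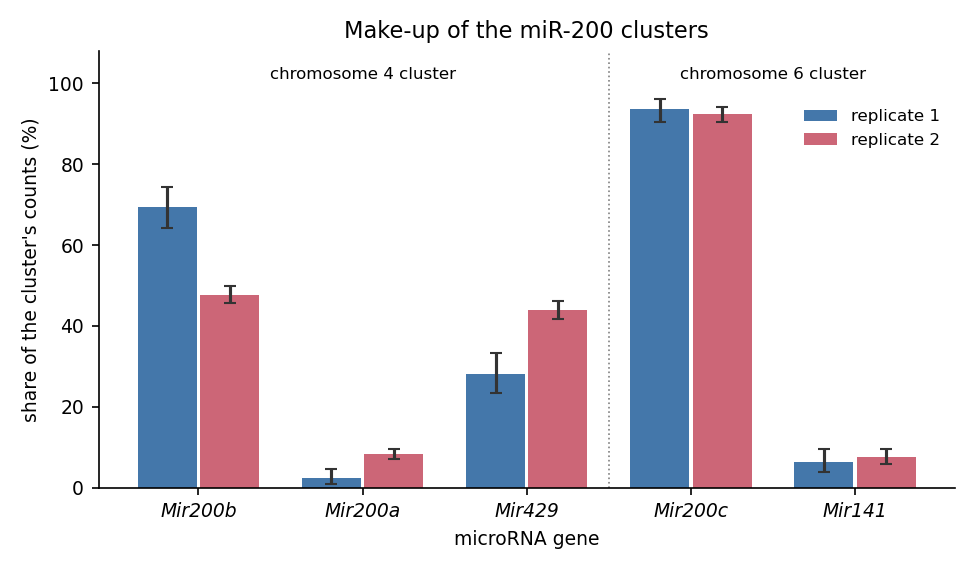
Share of each cluster's counts in percent, by gene, for replicate 1 (blue) and replicate 2 (red), with exact 95% intervals as error bars. In the chromosome 4 cluster Mir200b went from 69.4% to 47.8% and Mir429 from 28.2% to 44.0%, whereas Mir200c stayed at 93.7% and 92.4% of the chromosome 6 cluster.

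Set out by seed, most family reads carried the AAUACUG seed of miR-200b, miR-200c and miR-429. These genes summed to 301 CPM and 816 CPM in replicates 1 and 2. The genes of the AACACUG seed, Mir200a and Mir141, summed to 13.3 and 71.7 CPM. Reads of the first seed group numbered 22.6 per read of the second in replicate 1 and 11.4 in replicate 2. Counts are per hairpin gene, so these sums include reads of the opposite arm, which has another seed.

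Mir203 differed from the other members in the strand of its reads. The 6 others had 0 reads on the opposite strand in either library, for which a limit of 3 counts corresponds to 1.48 CPM in the first library and 0.935 CPM in the second. At Mir203, 82 reads in replicate 1 and 130 reads in replicate 2 lay on the opposite strand. GENCODE M21 annotates no microRNA there, whereas RefSeq places Gm51289 (synonym Mir203b) on the minus strand at positions 112130887 to 112130946 of chromosome 12. Its products are shown beside the second arm of Mir203, with bases 2 to 8 in capitals.
miR-203-5p: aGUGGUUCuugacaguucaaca
miR-203b-3p: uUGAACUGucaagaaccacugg
miR-203b-5p: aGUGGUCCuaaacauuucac

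The miR-203b-3p product covers 20 positions of miR-203-5p on the other strand, and miR-203b-5p covers 20 positions of miR-203-3p. Aligned from the 5′ end, miR-203b-3p matches miR-203-3p at 16 of 22 bases, with 1 difference in the seed, A6C from miR-203-3p to miR-203b-3p. The deposited counts do not say which of these products the opposite-strand reads came from.

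On the same scale, the opposite-strand reads came to 40.5 CPM in replicate 1 and again 40.5 CPM in replicate 2, with exact 95% intervals of 32.2 to 50.3 and 33.8 to 48.1 CPM and a log2 ratio of 0.05 (-0.36 to 0.46). Over the same hairpin the sense reads differed 7.38-fold. The opposite strand thus gave 11.9% of all reads at Mir203 in replicate 1 (9.58 to 14.6%) and 1.86% in replicate 2 (1.55 to 2.20%). Of the 329 genes tested, 303 had no annotated microRNA on the other strand. Of these, 289 had no opposite-strand read in either library, and Mir203 was the only 1 with at least 10 in each library, a minimum chosen after the Mir203 counts were seen.

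**Figure D4:**
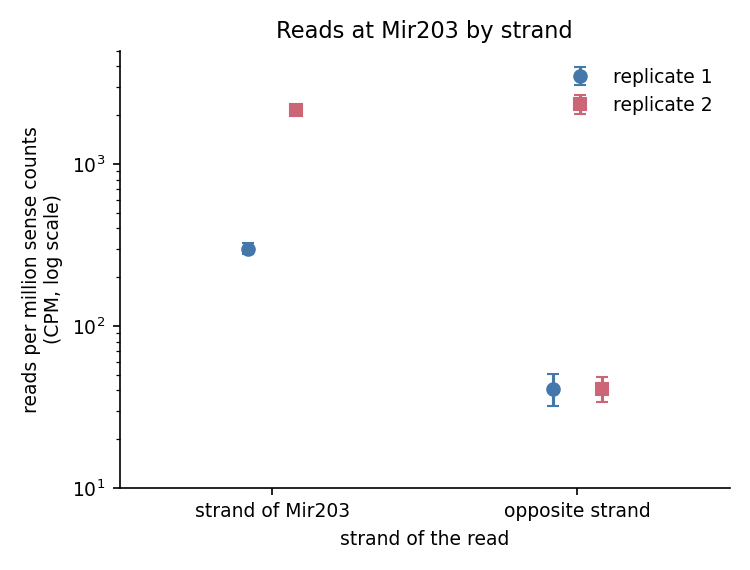
Reads at Mir203 in CPM of all sense counts on a log axis, by strand, for replicate 1 (circles) and replicate 2 (squares), with exact 95% intervals. On the strand of Mir203 the libraries stand at 300.0 and 2141 CPM, and on the opposite strand both stand at 40.5 CPM.

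Other microRNAs of epithelia were called in both directions. Of 14 such genes, 9 were tested, all of them at 10 CPM or more in both animals. In replicate 2, 2 of these were higher, 4 lower and 3 did not pass (median log2 ratio -0.29). Of all genes tested, 37.7% were called higher and 36.5% lower, so with 9 genes this split says little about them. Mir31, abundant in keratinocytes, was lower in replicate 2, with 501 CPM in the first library and 342 in the second (log2 ratio -0.50). Of the Mir183 cluster, which is known from sensory epithelia, Mir182 was lower in replicate 2 (1313 and 899 CPM, log2 ratio -0.50) and Mir183 did not pass (126 and 102 CPM, adjusted p = 0.0504 in the exact conditional binomial test).

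Of the microRNAs of multiciliated epithelium, Mir34c, known as a target of p53, had 249.6 and 1376 CPM in replicates 1 and 2, and its log2 ratio of 2.51 was near that of Mir429. Its cluster neighbour Mir34b was at 24.2 and 23.4 CPM and did not pass, and neither did Mir449a at 62.3 and 49.2 CPM. Mir449b had no count in either library. Of the kidney or gut genes, Mir192 (172 and 47.1 CPM, log2 ratio -1.80) and Mir194-2 (178 and 69.8 CPM, -1.29) were lower in replicate 2, and Mir204 (57.8 and 96.3 CPM, 0.77) was higher. Mir194-2 has a numbered copy, and reads that fit both copies were left uncounted.

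**Figure D5:**
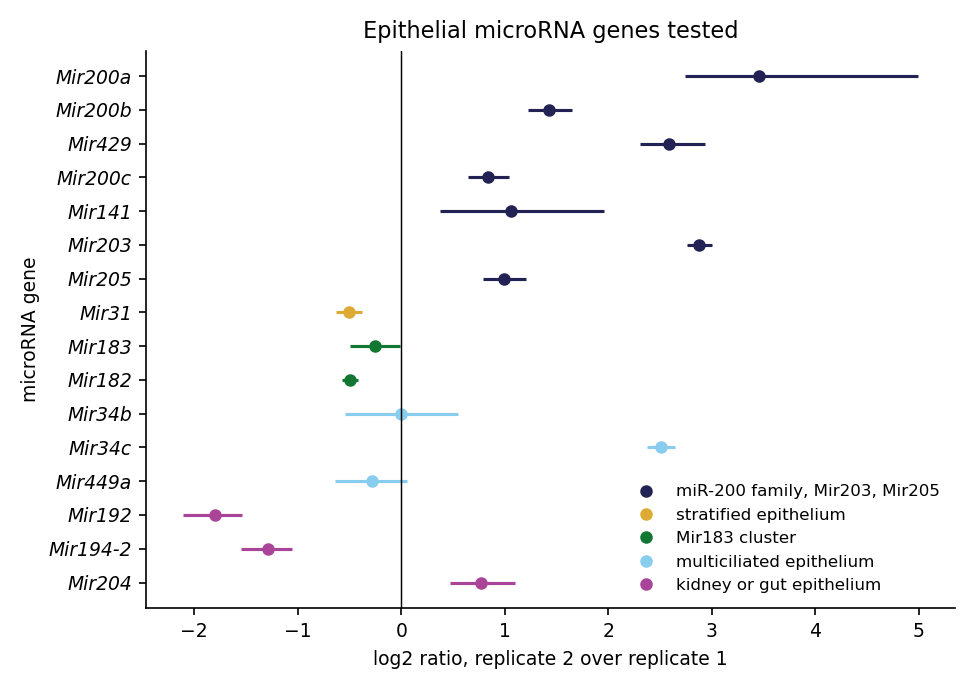
Log2 ratio of replicate 2 over replicate 1 for the 16 epithelial microRNA genes tested, coloured by group, where points carry a pseudocount of 1 CPM and lines are exact 95% intervals without it. The 7 genes at the top lie between 0.84 and 3.45, while of the other 9 only Mir34c (2.51) and Mir204 (0.77) were higher in replicate 2.

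Markers of other cell types are read against the 37.7% of all genes tested that were called higher and the 36.5% called lower. All 5 leukocyte genes were higher in replicate 2 and none was at 0 (summed level 2455 and 4308 CPM), with Mir223 of myeloid cells at 91.4 and 265 CPM. Of the 7 genes of fibroblasts, cartilage and smooth muscle, 6 were tested, of which 4 were higher and 2 lower (summed level 32093 and 46403 CPM), with log2 ratios of 3.57 for Mir140 of cartilage, 2.68 for Mir145a of smooth muscle, 0.72 for Mir199b and 0.34 for Mir143, the cluster neighbour of Mir145a. The lower genes were Mir214 (3057 and 914 CPM, log2 ratio -1.69) and Mir199a-2 (-0.61), a numbered copy. Mir143 took most of the summed level of this list (27532 and 33734 CPM). The single genes for endothelium and liver, Mir126a (log2 ratio -1.84) and Mir122 (-1.48), were lower. The 8 striated muscle genes summed to 11315 and 4507 CPM, most of it Mir206 (11177 and 4480 CPM). Of these genes, 4 were tested and all were lower. Of these 4, Mir133b and Mir208b reached 10 CPM in replicate 1 alone, which fixed their direction, while Mir1a-1 and Mir133a-2, which have numbered copies, had no counts.

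The 5 neuroendocrine genes, the list nearest to the medulla, all had counts. Their summed levels were 28211 and 34978 CPM in the 2 libraries, and against the same shares of all genes they split into 1 higher, 3 lower and 1 that did not pass. The higher gene was Mir375, which took most of the sum (24805 and 31924 CPM). None of the lists holds a marker of the cortex. What part differences in the makeup of the dissected tissue had in the ratios of the miR-200 family, Mir203 and Mir205 was not tested.

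The genes outside the set with the most similar behaviour were taken as the 5 with a mean of at least 100 CPM whose log2 ratio was nearest to the median of the 7, over these 2 libraries. They were Mir21a (log2 ratio 1.45), Mir23b (1.45), Mir10b (1.51), Mir23a (1.52) and Mir223 (1.57). Of these, Mir23b, Mir10b, Mir23a and Mir21a were far more abundant than any member, with Mir21a at 4685 and 12350.0 CPM. With 1 ratio per gene, such likeness places genes at the same point on 1 scale and no more, and 7 of the 208 candidate genes lay within 0.25 of the median.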

How the data were processed

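MicroRNA-seq reads of 2 adrenal libraries, which form 1 group, had been counted by the authors per microRNA gene and library, on mm10 with GENCODE M21 per the deposited text files. The deposited counts are raw reads, irrespective of strand, on the strand of the gene and on the opposite strand, as read from their values. For the aligner and counting program, no name is given in the sources used here. Reads with several alignments (25.0% and 27.2% of all reads) were left uncounted, and the strand-specific count set no read aside as ambiguous, per the deposited summary lines, which stayed out of all totals. Counts are per hairpin, so the arms of a hairpin were not separated.

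All 2202 identifiers were matched to M21 symbols. CPM was computed over sense-strand counts. The libraries were compared with the exact conditional binomial test (SciPy 1.17.1, Python 3.11.15) on library sizes scaled by TMM in edgeR 4.0.16 (R 4.3.3), over genes at 10 CPM or more in either library, with a threshold of 0.05 on the adjusted p. With 1 group, no model between conditions could be fitted. The script was tested on simulated data. A count of 0 allows up to 3 counts. Intervals and limits cover counting error only, since the sources used here name no molecular identifiers.

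Named were the 7 genes, genes of the 11 lists at 10 CPM or more in either library, genes on the opposite strand, and the 5 genes of most similar ratio. Listed genes at 0 were named after their counts were seen. The members, lists and tests were chosen with earlier results of these data known. Alternatives covered scaling (with DESeq2 1.42.0 size factors), the floor, the pseudocount, strand, the CPM total and each replicate left out.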

Additional observations from a re-analysis of the deposited data

How the results depend on the processing

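Over 54 combinations of a member and an alternative scaling, floor, pseudocount or strand setting, each log2 ratio stayed positive and past the threshold of the exact conditional binomial test, with a largest adjusted p of 0.00593. At a floor of 100 CPM, Mir200a and Mir141 were not tested. Mir200a ranged from 2.17 to 3.72 and Mir141 from 0.65 to 1.13, both with their low counts in replicate 1 as the limit, and Mir203 from 2.70 to 2.91. DESeq2 size factors from genes at 10 CPM or more, and the sum without Mir203, were chosen after seeing the data. With the 10 most abundant genes left out of the total, mean levels of all 7 were higher, at 2384 CPM for Mir203, 314 for Mir429, 54.1 for Mir200a, 409 for Mir200b, 383 for Mir200c, 29.2 for Mir141, 372 for Mir205 and 3945 for the 7 together. Scaled to all reads of a table, summary lines included, all 7 were lower, at 459 for Mir203, 77.9 for Mir200b, 60.4 for Mir429, 10.5 for Mir200a, 72.5 for Mir200c, 5.54 for Mir141 and 70.5 for Mir205. These shifts follow from the size of the total. With counts irrespective of strand, mean levels of all 7 were also higher, at 1623 CPM for Mir203 and 2657 for the 7 together. The totals of those counts were smaller, at 1401836 and 2541746 reads, with 621695 and 667292 reads set aside as ambiguous. With either replicate left out, the sum of the 7 was 742 or 3274 CPM. No paired analysis was possible because the samples form 1 group.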
